A study of Homo sapiens with 8 samples.

Results

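The subject is the transcripts of p21, of the other inhibitors of cyclin-dependent kinases (CDKs), of the D-type cyclins and of CDK6, in 2 primary effusion lymphoma lines cultured with lenalidomide or with its solvent. The members are all probes of the deposited intensity table whose annotated symbol is CDKN1A, CDKN1B, CDKN1C, CDKN2A, CDKN2C, CDKN2D, CCND1, CCND2, CCND3 or CDK6. They came to 15 probes of 9 genes, out of 47322 probes analysed. CDKN2C had no annotated probe and was not analysed here. Of the 15 probes, 11 probes of 7 genes passed the detection limit on both arrays in 1 group or more and were tested, among 22781 probes tested in all. The other 4 probes are described by their intensities only.

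The lines were BC3 and BCBL1, both derived from primary effusion lymphoma, a B-cell lymphoma of body cavities that carries Kaposi sarcoma-associated herpesvirus. The 4 groups were BC3 with DMSO, BC3 with 5 µM lenalidomide, BCBL1 with DMSO and BCBL1 with 5 µM lenalidomide, all in the same medium apart from the addition. How long the cells were exposed is not stated in the labels used here. Each group held 2 Illumina bead arrays, called a and b here, which the series describes as technical replicates, so that p-values measure the spread between arrays and not between cultures.

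CDKs drive the cell cycle only when bound to a cyclin. D-type cyclins activate CDK4 and CDK6, which phosphorylate the retinoblastoma protein RB1 and so release E2F transcription factors for S phase. The CIP/KIP inhibitors p21 (CDKN1A), p27 (CDKN1B) and p57 (CDKN1C) bind cyclin-CDK complexes, and the INK4 inhibitors, p16 from CDKN2A and p19 from CDKN2D among them, bind CDK4 and CDK6 alone. Lenalidomide binds cereblon, which selects the substrates of an E3 ligase, and so brings about the degradation of the lymphoid transcription factors IKZF1 and IKZF3. The Kaposi sarcoma-associated herpesvirus encodes a cyclin of its own that pairs with CDK6.

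The genomic sequences below show where transcripts that the results turn on start. Each is the 250 bases before an annotated start in RefSeq, on build GRCh38.p14, with every match to the GC box GGGCGG in capitals, the element bound by SP1-family factors. CDKN1A lies on the plus strand, and its window is chr6:36678464-36678713. CDKN2A lies on the minus strand and has a start for the transcript of ARF, an MDM2 inhibitor, at chr9:21995325-21995574, and one for the p16 transcript at chr9:21974858-21975107.
CDKN1A: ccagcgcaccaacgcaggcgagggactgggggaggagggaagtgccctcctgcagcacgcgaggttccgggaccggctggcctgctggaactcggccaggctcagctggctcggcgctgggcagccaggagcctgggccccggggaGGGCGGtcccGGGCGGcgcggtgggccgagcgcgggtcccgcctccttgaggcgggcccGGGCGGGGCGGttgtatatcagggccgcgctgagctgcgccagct
CDKN2A, ARF start: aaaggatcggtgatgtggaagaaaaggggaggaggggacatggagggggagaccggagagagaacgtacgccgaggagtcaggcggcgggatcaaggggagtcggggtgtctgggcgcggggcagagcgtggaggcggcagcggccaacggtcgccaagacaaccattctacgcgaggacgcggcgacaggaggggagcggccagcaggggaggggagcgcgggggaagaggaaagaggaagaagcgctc
CDKN2A, p16 start: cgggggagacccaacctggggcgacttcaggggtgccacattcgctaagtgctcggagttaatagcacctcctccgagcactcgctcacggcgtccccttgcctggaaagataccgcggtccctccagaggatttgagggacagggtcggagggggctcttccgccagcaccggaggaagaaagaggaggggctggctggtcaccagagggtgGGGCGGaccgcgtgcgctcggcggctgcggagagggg
The CDKN1A window held 4 GC boxes, at 104, 94, 45 and 40 bases before the start, the last pair overlapping by 1 base, and the letters TATA at 31 bases before it. Searched on both strands, at least 1 GC box stood in 42.6% of 35116 RefSeq promoter windows of this length, at least 4 in 7.63%, and TATA in 27.1%. The CDKN1A window had no match to the E box CACGTG (6.35% of windows), the Ikaros core TGGGAA (20.8%) or the AP-1 site TGANTCA (6.57%). The p16 window had 1 GC box, at 37 bases, and the ARF window had none. These matches are a description of the letters; binding was not measured.

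Median intensities of the 8 arrays ran from 137 to 153, and 45.3% to 46.6% of probes were above background on each. Within a group the 2 arrays correlated with r of 0.993 to 0.995 across probes, which are not independent replicates. Of 9 plasma cell and immunoblast markers, the state that defines this lymphoma, 8 were above background in every group, and TNFRSF8 (CD30) was not. Of 8 B-cell identity markers with a probe, 1 or 2 were above background on both arrays of a group, and PAX5 and EBF1 in none.

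CDKN1A, which encodes p21, rose with lenalidomide in both lines, and no other member changed past the threshold in either line. On the brighter of its 2 probes (ILMN_1784602) the BC3 arrays read intensities of 1804 and 1982 with DMSO and 5804 and 5008 with lenalidomide. The BCBL1 arrays read 3030.4 and 2496 with DMSO and 4755 and 5314 with lenalidomide. All 4 lenalidomide arrays lay above all 4 DMSO arrays. After background correction and quantile normalization the rise was 1.62 ± 0.14 on the log2 scale in BC3, or 3.07-fold (limma adjusted p = 1.39e-05, ± standard error, n = 2 arrays per group). In BCBL1 it was 1.10 ± 0.14, or 2.14-fold (adjusted p = 7.24e-04). A change passed where the p adjusted by Benjamini-Hochberg over all tested probes was below 0.05.

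The normalized levels of this probe ordered the groups from BC3 with DMSO (10.76 on the log2 scale) over BCBL1 with DMSO (11.33) and BC3 with lenalidomide (12.37) to BCBL1 with lenalidomide (12.43). The lines differed with DMSO, by 0.58 ± 0.14 (adjusted p = 0.00553). With lenalidomide their arrays overlapped, and the difference was 0.06 ± 0.14, with a 95% interval of -0.25 to 0.36. The DMSO difference did not pass without BCBL1 DMSO array a, where it was 0.38 (adjusted p = 0.0774). The rise was smaller in BCBL1 than in BC3 by 0.52 ± 0.20, with an interval of 0.09 to 0.95, and this difference of effects did not pass (adjusted p = 0.433). With the mean of each group's arrays and the line as the replicate (n = 2 lines), the rise common to both lines was 1.36 ± 0.14 (limma adjusted p = 0.00115). That fit had 1 residual degree of freedom and a prior of 9.07. Its standard error thus rests mostly on the spread of all probes and not on that of CDKN1A between the lines.

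The dimmer CDKN1A probe (ILMN_1787212), annotated to another p21 transcript, read 164 and 157 in BC3 with DMSO and 288 and 209 with lenalidomide. In BCBL1 it read 166 and 246 with DMSO and 234 and 263 with lenalidomide. On normalized values its groups did not overlap in either line, but BCBL1 DMSO array b stood close to the lenalidomide arrays. The change was 0.82 ± 0.21 in BC3 (adjusted p = 0.0487) and 0.61 ± 0.21 in BCBL1 (adjusted p = 0.177). The BC3 call was lost without any 1 of the 4 BC3 arrays (adjusted p = 0.0977 to 0.354) or either BCBL1 lenalidomide array (0.0671). In BCBL1 the probe passed without DMSO array b (0.99, adjusted p = 0.0300). With the line as the replicate the rise was 0.72 ± 0.12 (adjusted p = 0.0156), with a standard error that again rests mostly on other probes. Between the lines this probe did not pass. BCBL1 minus BC3 was 0.48 ± 0.21 with DMSO, where the arrays overlapped (limma adjusted p = 0.0875). With lenalidomide the difference was 0.27 ± 0.21 (adjusted p = 0.338).

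Markers of other cell types moved with lenalidomide too. Among 8 myeloid markers with a probe, 5 were above background on both arrays in BC3 with DMSO and 5 with lenalidomide, and LYZ was below background throughout. Their summed level, of corrected and normalized values on the linear scale, was 957 to 1004 in BC3 with DMSO and 2354 to 2457 with lenalidomide. In BCBL1 it was 945 to 970 with DMSO and 912 to 935 with lenalidomide. Of 5 tested myeloid markers, 3 rose and 0 fell in BC3, and 0 passed in BCBL1. For the difference of effects 2 of them passed, with the lower change in BCBL1. Of 10 epithelial, stromal and endothelial markers, KRT8, an epithelial keratin, rose in both lines (1.86 ± 0.12 in BC3, 1.49 ± 0.12 in BCBL1), and CDH1, E-cadherin, rose in BC3 (1.03 ± 0.14). This list had 5 members above background on both arrays in BC3 with DMSO and 6 with lenalidomide, and 3 and 4 in BCBL1, with VWF below background throughout. Its summed level was 6982 to 7424 with DMSO and 7399 to 7756 with lenalidomide in BC3. In BCBL1 it was 882 to 948 and 1176 to 1177. CD2, 1 of 11 markers of T and NK cells, rose in both lines (0.61 ± 0.13 and 0.93 ± 0.13), and GZMB and CD3E fell in BC3 (by 0.87 ± 0.15 and 0.51 ± 0.13). Between 1 and 5 of the 11 were above background on both arrays of a group, with CD8A, CD5, NCAM1 and NKG7 below background throughout. Their summed level was 2244 to 2362 with DMSO and 2389 to 2570.2 with lenalidomide in BC3, and 1010.5 to 1019 and 1158 to 1190 in BCBL1. Of 8 tested plasma cell and immunoblast markers, 1 rose and 1 fell in each line. Among all tested probes 2.16% were higher and 0.746% lower in BC3, and 1.42% and 0.487% in BCBL1. The part of all these markers in the CDKN1A result was not tested.

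**Figure D1:**
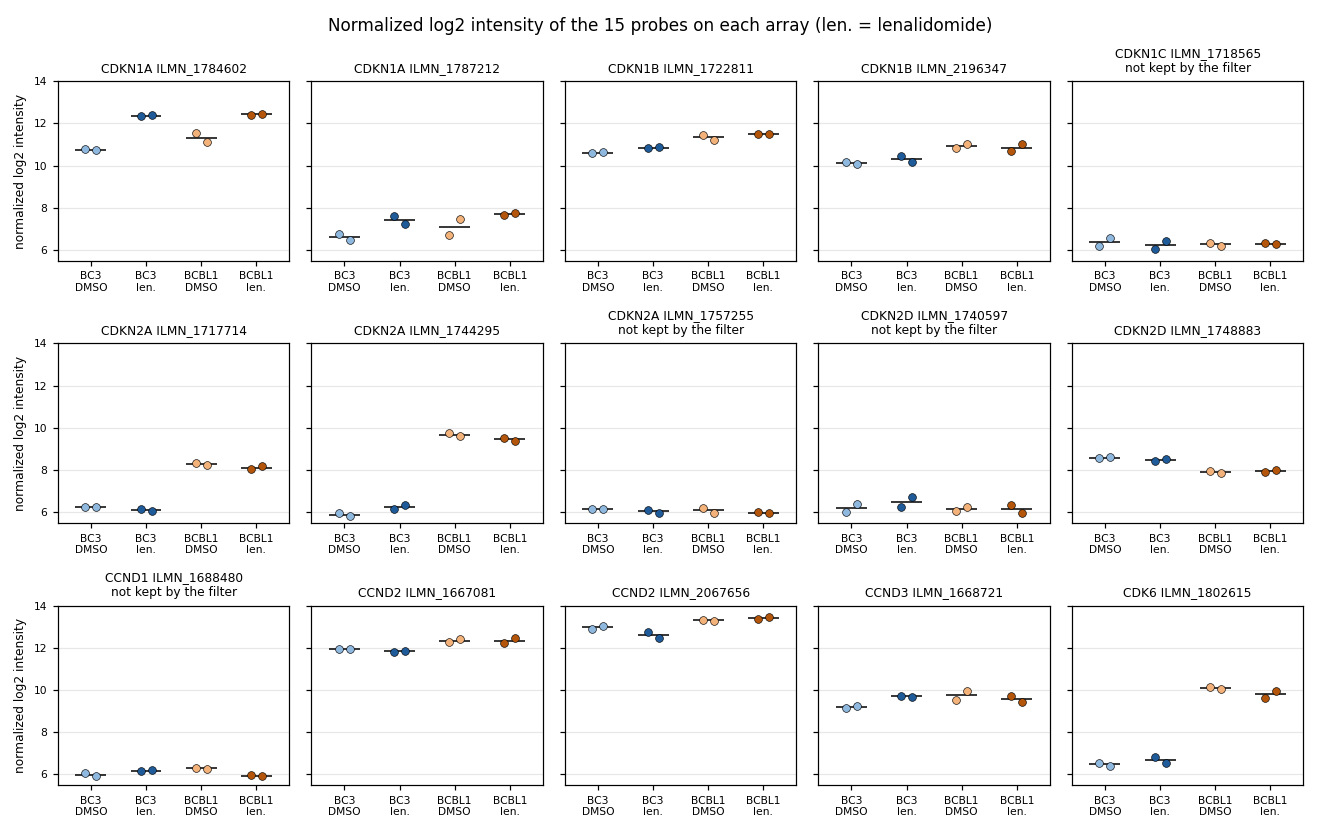
Normalized log2 intensity (vertical axis) of each of the 15 probes on each array, one panel per probe. Points are the 2 arrays of a group and bars their mean; in the CDKN1A ILMN_1784602 panel all lenalidomide arrays lie above all DMSO arrays, and in the CDK6 panel the BCBL1 arrays lie far above the BC3 arrays.

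Of the other CIP/KIP inhibitors, CDKN1B was tested and did not pass with lenalidomide, and CDKN1C was not tested. CDKN1B, the p27 gene, read 1577 and 1870 in BC3 with DMSO and 2106 and 1783 with lenalidomide on its brighter probe (ILMN_1722811). In BCBL1 that probe read 2925 and 2655 with DMSO and 2555 and 2770 with lenalidomide. Its normalized change was 0.23 ± 0.13 in BC3 (interval -0.05 to 0.50) and 0.15 ± 0.13 in BCBL1 (interval -0.12 to 0.42). The second CDKN1B probe (ILMN_2196347) gave 0.20 ± 0.15 in BC3 and -0.08 ± 0.15 in BCBL1. Neither probe passed in either line (adjusted p = 0.449 to 0.858), and the intervals leave room for a change of up to 0.53. The CDKN1C probe, for p57, was above background on 1 of 8 arrays, with intensities of 130 to 164 over all groups.

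Among the INK4 genes, CDKN2A was measured by 3 probes and CDKN2D by 2. In BC3 both CDKN2A probes that were tested stayed below background on all 4 arrays. In BCBL1 the probe annotated to the p16 transcript (ILMN_1717714) read 375 and 378 with DMSO and 281 and 333 with lenalidomide. The probe annotated to the ARF transcript (ILMN_1744295) read 909 and 897 with DMSO and 675 and 677 with lenalidomide. They are called the p16 and ARF probes by annotation only. Probe sequences were not checked, so whether each reads its own transcript alone is not known. Lenalidomide arrays were lower than DMSO arrays on both probes, but the normalized changes of -0.18 ± 0.12 and -0.22 ± 0.13 did not pass (adjusted p = 0.533 and 0.476). The third CDKN2A probe was above background on 0 of 8 arrays.

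CDKN2D, the gene of INK4 inhibitor p19, read 433 and 508 in BC3 with DMSO and 463 and 422 with lenalidomide on its tested probe (ILMN_1748883). In BCBL1 it read 301 and 303 with DMSO and 266 and 302 with lenalidomide. The normalized change was -0.11 ± 0.12 in BC3 and 0.06 ± 0.12 in BCBL1 (adjusted p = 0.762 and 0.872). The other CDKN2D probe was above background on 1 of 8 arrays.

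Of the D-type cyclin genes, CCND2 and CCND3 were measured and the CCND1 probe was above background on 0 of 8 arrays (intensities of 118 to 141). CCND2, the D-type cyclin of many B cells, read 7520 and 9507 in BC3 with DMSO and 7856 and 5280 with lenalidomide on its brighter probe (ILMN_2067656). In BCBL1 it read 10647 and 10851 with DMSO and 9437 and 10573 with lenalidomide. The normalized change was -0.35 ± 0.13 in BC3 (interval -0.63 to -0.06, adjusted p = 0.228) and 0.12 ± 0.13 in BCBL1 (adjusted p = 0.746). The second CCND2 probe (ILMN_1667081) gave -0.09 ± 0.13 in BC3 and -0.0002 ± 0.13 in BCBL1. The 2 probes thus gave changes of unequal size in BC3, and neither passed.

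CCND3, the third D-type cyclin gene, had the widest gap between the lines among the changes with lenalidomide. Its probe (ILMN_1668721) read 627 and 746 in BC3 with DMSO and 1021 and 839 with lenalidomide. Its BCBL1 intensities were 797 and 1122 with DMSO and 751 and 708 with lenalidomide. The BC3 groups did not overlap on normalized values, with a change of 0.51 ± 0.15 (interval 0.19 to 0.84, adjusted p = 0.101). In BCBL1 the groups overlapped, with a change of -0.19 ± 0.15 (adjusted p = 0.622). The difference of effects was -0.70 ± 0.21 and did not pass (adjusted p = 0.295).

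CDK6, the kinase partner of the D-type cyclins, read 149 and 154 in BC3 with DMSO, where 1 of 2 arrays was above background, and 189 and 151 with lenalidomide. BCBL1 gave 1194 and 1187 with DMSO and 716 and 985 with lenalidomide. Both BCBL1 lenalidomide arrays were below both DMSO arrays, with a normalized change of -0.31 ± 0.15 (interval -0.63 to 0.01, adjusted p = 0.363). In BC3 the change was 0.21 ± 0.15 (adjusted p = 0.571).

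**Figure D2:**
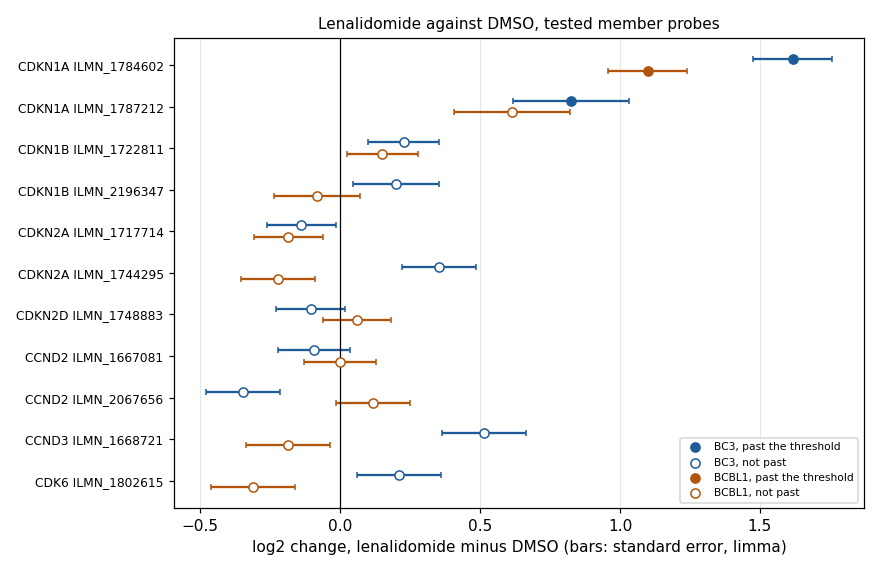
Log2 change with lenalidomide (horizontal axis) of each tested member probe in BC3 and BCBL1; points are limma estimates and bars their standard errors, filled where the change passed the threshold. The filled points are CDKN1A ILMN_1784602 in both lines, at 1.62 and 1.10, and CDKN1A ILMN_1787212 in BC3, at 0.82.

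In counts, 2 of 11 tested member probes rose in BC3 and 0 fell, against 2.91% of all tested probes called in that comparison (2.16% higher, 0.746% lower). Both were CDKN1A probes. In BCBL1 1 rose and 0 fell, against 1.91% called (1.42% higher, 0.487% lower). At an unadjusted p under 0.05 limma gave 5 member probes in BC3 and 2 in BCBL1. The share of all tested probes at that unadjusted threshold is not given here, so these counts show no excess. The 5 in BC3 include the ARF probe of CDKN2A (0.35 ± 0.13), which was below background on every BC3 array. The median change of the members was 0.21 in BC3 and -0.0002 in BCBL1, and that of all tested probes -0.01 in both. For the difference of effects 0 member probes passed in limma, beside 0.285% of all probes called at the adjusted threshold. An unadjusted p under 0.05 was reached by 5 member probes, again without a share of all probes. The ARF probe was among these 5 too. Arrays of the treatments did not overlap for 9 of 11 member probes in BC3, beside 46.1% of all probes, and for 7 in BCBL1, beside 43.6%. The 9 in BC3 include both tested CDKN2A probes, which were below background there.

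**Figure D3:**
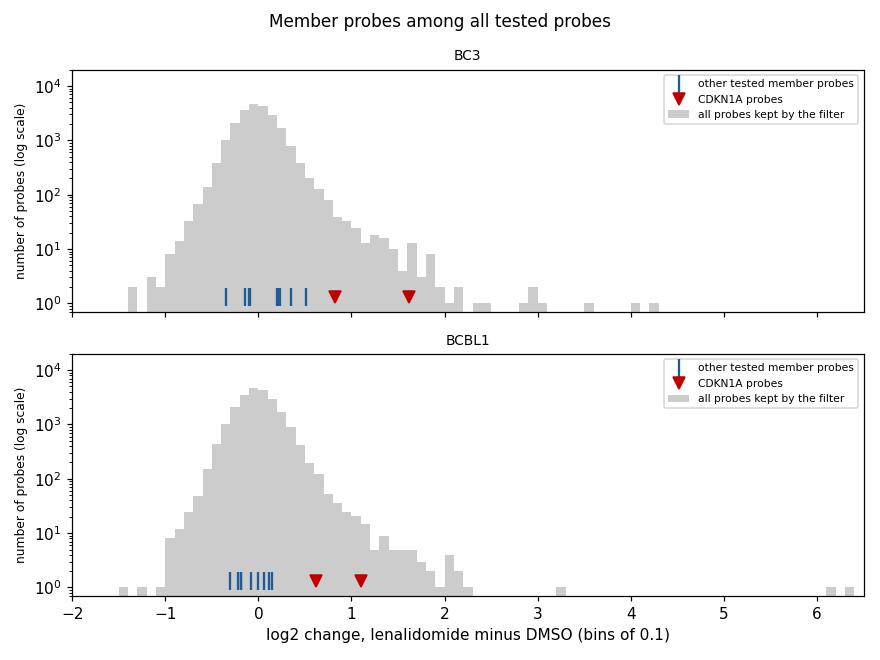
Histogram of the log2 change with lenalidomide of all 22781 tested probes (grey, count on a log axis, bins of 0.1) in BC3 (top) and BCBL1 (bottom), with the 11 member probes marked along the base. The CDKN1A probes (triangles) lie to the right, at 0.82 and 1.62 in BC3 and at 0.61 and 1.10 in BCBL1, and the other members lie between -0.35 and 0.51.

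The genes around these members were read from 5 lists, each gene by its brightest tested probe. The list counts below stand beside 2.16% of all tested probes higher and 0.746% lower in BC3. In BCBL1 these shares were 1.42% and 0.487%. The shares count probes, while the lists count genes. They hold for the adjusted threshold, and no share is given for list counts at an unadjusted p. Of 22 tested p53 target genes other than CDKN1A, 2 rose in each line and 0 fell. GADD45A, a stress-response gene, read 802 and 887 in BC3 with DMSO and 2671 and 2118 with lenalidomide. The BCBL1 arrays gave 963 and 1206 with DMSO and 1874 and 2101 with lenalidomide. Its normalized rise was 1.64 ± 0.13 in BC3 and 1.12 ± 0.13 in BCBL1 (adjusted p = 4.63e-06 and 2.84e-04). RRM2B, a ribonucleotide reductase subunit induced by p53, rose by 0.67 ± 0.13 in BC3 (adjusted p = 0.0143) and 0.61 ± 0.13 in BCBL1 (adjusted p = 0.0319). MDM2, the p53 ubiquitin ligase, gave 0.20 ± 0.14 and 0.30 ± 0.14 (adjusted p = 0.552 and 0.328). The list's median change was -0.02 in BC3 and 0.12 in BCBL1. The RRM2B call was lost in BC3 without any 1 of its 4 arrays (adjusted p up to 0.15). In BCBL1 it was lost without DMSO array b, either lenalidomide array or either BC3 DMSO array (up to 0.231), while GADD45A passed without each array in turn.

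Of 32 tested genes from a list of known regulators of CDKN1A, 5 rose in BC3 and 0 fell, and 5 rose in BCBL1 and 1 fell. The median change of the list was -0.0003 in BC3 and 0.04 in BCBL1. KLF6, a zinc-finger factor reported to act on the p21 promoter, rose by 0.85 ± 0.13 and 0.73 ± 0.13. JUN, a subunit of AP-1, rose by 0.82 ± 0.14 and 1.54 ± 0.14. In BC3 the forkhead factor FOXO3 rose by 0.77 ± 0.14, CEBPA by 0.76 ± 0.13 and TFAP2A by 0.60 ± 0.14, while in BCBL1 their changes of 0.18, -0.17 and -0.07 did not pass. In BCBL1 BCL6 rose by 0.69 ± 0.13, the interferon-response factor IRF1 by 0.61 ± 0.13 and IKZF1 by 0.61 ± 0.14, while their BC3 changes of 0.33, 0.30 and 0.19 did not pass.

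EGR1, an immediate-early transcription factor of that list, was the one regulator whose effect differed between the lines past the threshold. Its arrays read 312 and 394 in BC3 with DMSO and 460 and 439 with lenalidomide, and 1705 and 1886 in BCBL1 with DMSO and 825 and 979 with lenalidomide. The normalized change was 0.42 ± 0.13 in BC3 (adjusted p = 0.133) and -0.81 ± 0.13 in BCBL1 (adjusted p = 0.00509). The difference of effects was -1.22 ± 0.19 (adjusted p = 0.00897). It was lost without BC3 DMSO array a, BC3 lenalidomide array b or BCBL1 lenalidomide array a (adjusted p up to 0.0860). The fall in BCBL1 was lost without BCBL1 lenalidomide array a (adjusted p = 0.0517). IKZF3 gave -0.56 ± 0.17 in BC3 and -0.31 ± 0.17 in BCBL1 (adjusted p = 0.109 and 0.433), so neither IKZF gene fell past the threshold at the RNA level.

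IRF1 and IKZF1 in BCBL1 each passed under 5 of 12 alternatives and TFAP2A in BC3 under 6. Apart from JUN in BCBL1, each call of the CDKN1A regulators was lost without at least 1 array. In BC3 these were DMSO array a for KLF6 (adjusted p = 0.0527), DMSO array b and lenalidomide array a for JUN (up to 0.101), DMSO array b and lenalidomide array b for FOXO3 (up to 0.126), either DMSO array and lenalidomide array b for CEBPA (up to 0.0878), and any of the 4 for TFAP2A (up to 0.265). In BCBL1 they were DMSO array a and either lenalidomide array for KLF6 (up to 0.105), DMSO array b and either lenalidomide array for BCL6 (up to 0.148), and any of the 4 for IRF1 (up to 0.151). The IKZF1 call was lost without any 1 of the 8 arrays (0.0517 to 0.281). Of the dimmer tested probes in BC3, 1 of FOXO3 rose too (0.76, adjusted p = 0.00903) and 1 did not pass (0.16, adjusted p = 0.721), and neither of TFAP2A passed (0.49 and 0.05, adjusted p = 0.0781 and 0.924).

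Of 40 tested genes of the other G1 and S phase machinery (cyclins, CDKs, E2F factors and RB family), 1 rose and 2 fell in BC3, and 1 rose and 0 fell in BCBL1. In BC3 E2F7, a repressor among the E2F factors, rose by 0.60 ± 0.14, the activator E2F3 fell by 0.69 ± 0.15, and CCNA2, the S phase cyclin A gene, fell by 0.49 ± 0.12 (adjusted p = 0.0304, 0.0237 and 0.0481). In BCBL1 E2F2 rose by 0.53 ± 0.12 (adjusted p = 0.0445). CCNA2 passed under 4 of 12 alternatives, E2F2 under 5, E2F7 under 6 and E2F3 under 7. The CCNA2 and E2F2 calls were lost without any 1 of the 8 arrays (from 0.0579 and 0.0628 up), that of E2F7 without any of the 4 BC3 arrays (up to 0.279), and that of E2F3 without either BC3 DMSO array or lenalidomide array b (up to 0.274). The median change was -0.09 in BC3 and -0.04 in BCBL1.

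Of 35 tested DNA replication and mitosis genes, 0 rose and 1 fell in BC3, where GINS2, a subunit of the replicative helicase, fell by 0.62 ± 0.13 (adjusted p = 0.0222, lost without any of the 4 BC3 arrays). In BCBL1 0 rose and 0 fell in limma, with 4 at an unadjusted p under 0.05. The list's median was -0.19 in BC3 and -0.05 in BCBL1. Of 20 tested regulators of the D-type cyclins and CDK inhibitors, 0 passed in BC3 in limma, with 3 at an unadjusted p under 0.05, and in BCBL1 ID2, an inhibitor of helix-loop-helix factors, rose by 0.62 ± 0.12 (adjusted p = 0.0167, lost without any of the 4 BCBL1 arrays). A dimmer ID2 probe gave 0.47 and did not pass (adjusted p = 0.414). The median was 0.03 and 0.06.

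Between the lines more of these probes passed than with the drug, and most of those were higher in BCBL1. With DMSO 8 of 11 tested probes were higher in BCBL1 and 1 lower, beside 35.3% of all tested probes called (18.3% higher, 17.0% lower). All 7 tested genes had a called probe. The counts and medians of the members here include the 2 tested CDKN2A probes, which were above background in BCBL1 alone. Those passed the filter only through BCBL1, so their higher calls there are not evidence of a pattern. With lenalidomide 7 were higher and 1 lower, beside 36.4% called (18.6% higher, 17.8% lower). The arrays of the lines did not overlap for 10 probes with DMSO, beside 67.1% of all probes, and for 9 with lenalidomide, beside 66.4%. The comparisons of the lines and those of the drug use the same arrays. The median difference of the 11 probes was 0.58 with DMSO and 0.53 with lenalidomide, and that of all probes 0.02 in both.

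The tested CDKN2A probes and CDK6 gave the widest gaps among the members. Since the CDKN2A probes passed the filter only through BCBL1, their p-values below are not evidence of a pattern. The CDKN2A probe for p16 read 131 and 144 in BC3 with DMSO against 375 and 378 in BCBL1, at least 3.61-fold higher in BCBL1 (adjusted p = 1.15e-08). The bound sets the BCBL1 mean against the level of the dimmest probes above background, on the corrected scale. It holds for that correction only and is not a minimum over the other settings. The ARF probe read 118 and 122 in BC3 and 909 and 897 in BCBL1, at least 9.35-fold higher (adjusted p = 3.23e-11). With lenalidomide the bounds were 3.17-fold and 8.02-fold. CDK6, above background on 1 of 2 BC3 DMSO arrays, was 12.3-fold higher in BCBL1 with DMSO (3.62 ± 0.15, adjusted p = 1.86e-10) and 8.54-fold with lenalidomide (3.09 ± 0.15, adjusted p = 1.07e-09). For all 3 probes every BCBL1 array lay above every BC3 array. The sizes depend on the background correction: with DMSO, no correction gave 2.73-fold for p16, 7.26-fold for ARF and 7.65-fold for CDK6, and the deposited log2 values gave 9.93-fold, 35.6-fold and 30.8-fold. With lenalidomide the same settings gave 2.59-fold, 5.55-fold and 5.72-fold, and 9.33-fold, 24.9-fold and 18.1-fold. All of these passed.

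CDKN1B was higher in BCBL1 on both probes, by 0.73 ± 0.13 and 0.81 ± 0.15 with DMSO (adjusted p = 4.52e-04 and 8.31e-04) and by 0.65 ± 0.13 and 0.53 ± 0.15 with lenalidomide (0.00103 and 0.0139). The last of these was lost without array b of either lenalidomide group (adjusted p up to 0.145). CDKN2D was the one member lower in BCBL1, by 0.68 ± 0.12 with DMSO and 0.51 ± 0.12 with lenalidomide (adjusted p = 6.10e-04 and 0.00453).

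CCND2 was higher in BCBL1 with lenalidomide on both probes, by 0.80 ± 0.13 and 0.50 ± 0.13 (adjusted p = 2.81e-04 and 0.00750). With DMSO the differences were 0.33 ± 0.13 (adjusted p = 0.0653) and 0.40 ± 0.13 (0.0248), so the probes differed in their call. The second probe's calls were lost without either BC3 DMSO array or BCBL1 DMSO array b (adjusted p up to 0.151) and, with lenalidomide, without BCBL1 lenalidomide array b (0.0731). CCND3 was higher in BCBL1 with DMSO, by 0.57 ± 0.15 (adjusted p = 0.00892). That call was lost without BC3 DMSO array a (0.0619) or BCBL1 DMSO array b (0.118). With lenalidomide the CCND3 arrays of the lines overlapped, at -0.13 ± 0.15 (adjusted p = 0.539).

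**Figure D4:**
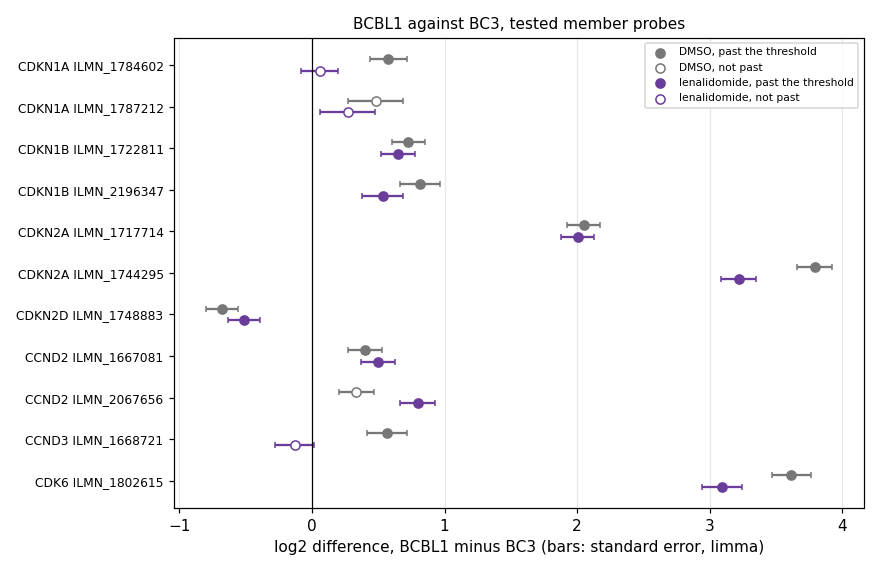
Log2 difference between the lines, BCBL1 minus BC3 (horizontal axis), of each tested member probe with DMSO and with lenalidomide; points are limma estimates and bars standard errors, filled where the difference passed the threshold. CDK6 and CDKN2A lie far to the right, at up to 3.79, CDKN2D lies to the left of 0 with both treatments, and CCND3 with lenalidomide is at -0.13; the CDKN2A values are those of the fit, in which BC3 is below background.

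Partners of these genes were read in the same arrays, chosen after their values were seen. RB1, the substrate of CDK4 and CDK6, read 132 and 137 in BC3 with DMSO and 151 and 147 with lenalidomide. BCBL1 read 701 and 635 with DMSO and 520 and 581 with lenalidomide. BC3 was below background with DMSO, and BCBL1 was at least 6.82-fold higher (adjusted p = 3.04e-10). With lenalidomide, where 1 of 2 BC3 arrays was above background, the difference was 2.70 ± 0.13 (adjusted p = 1.13e-09). RB1 thus passed the filter only through BCBL1, so its higher calls there are not evidence of a pattern. Without background correction the RB1 difference was 4.88-fold with DMSO, below that bound, and 4.21-fold with lenalidomide. With the deposited log2 values it was 21.7-fold and 16-fold. CDK4, the other kinase of the D-type cyclins, did not pass between lines with DMSO, at -0.20 ± 0.12 (adjusted p = 0.241). CCNE1, cyclin E, was lower in BCBL1 by 0.49 ± 0.12 (adjusted p = 0.00610, and 0.0528 without BCBL1 DMSO array a), and E2F3 was higher by 0.88 ± 0.15 (adjusted p = 4.09e-04).

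Genes next to CDKN2A, RB1 and CDK6 in RefSeq order were read in the same way. Next to CDKN2A, MTAP, a methionine salvage enzyme, was above background on all 8 arrays and differed by 0.26 ± 0.13 with DMSO (adjusted p = 0.138). With lenalidomide it was higher in BCBL1 by 0.58 (adjusted p = 0.00310), a call lost under median scaling. CDKN2B, the p15 gene on its other side, gave 0.29 ± 0.15 with DMSO (adjusted p = 0.157) on its brightest probe, and 0.48 with lenalidomide (adjusted p = 0.0238, lost without any 1 of the 4 lenalidomide arrays, up to 0.120, and under median scaling). A second CDKN2B probe, above background in BCBL1 alone, was at least 1.55-fold higher there with DMSO (adjusted p = 1.10e-04) and at least 1.52-fold with lenalidomide (adjusted p = 0.00116). That probe passed the filter only through BCBL1, so these calls are not evidence of a pattern. IFNE, next beyond MTAP, gave -0.04 ± 0.15 with DMSO and did not pass (limma adjusted p = 0.864). Around RB1 with DMSO, MED4 was higher in BCBL1 by 1.52 ± 0.14 and ITM2B by 1.23 ± 0.15 (adjusted p = 1.03e-06 and 1.91e-05). SUCLA2, next beyond MED4, gave 0.52 ± 0.13 (adjusted p = 0.00559), lost without array a of either DMSO group (up to 0.0608). On the other side of RB1, RCBTB2 and CYSLTR2 did not pass (0.28 and 0.21, adjusted p = 0.267 and 0.250). With lenalidomide MED4, ITM2B and SUCLA2 passed again (1.51, 1.20 and 0.47) and RCBTB2 and CYSLTR2 did not (0.17 and -0.24); the SUCLA2 call there was lost without BCBL1 lenalidomide array a (0.0560) and under median scaling. Around CDK6 with DMSO, FAM133B was higher by 0.83 ± 0.23 (adjusted p = 0.0127, lost without array b of either DMSO group, up to 0.200). RBM48 and SAMD9 there did not pass (0.37 and 0.22, adjusted p = 0.0558 and 0.213), and SAMD9L was lower by 0.38 ± 0.12 (adjusted p = 0.0248, lost without any 1 of the 4 DMSO arrays, up to 0.0972). With lenalidomide FAM133B (1.03) and SAMD9L (-0.62) passed again, RBM48 did not (0.09), and SAMD9 passed narrowly (0.35, adjusted p = 0.0487), a call lost without 7 of the 8 arrays in turn (up to 0.271). Copy number was not measured.

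**Figure D5:**
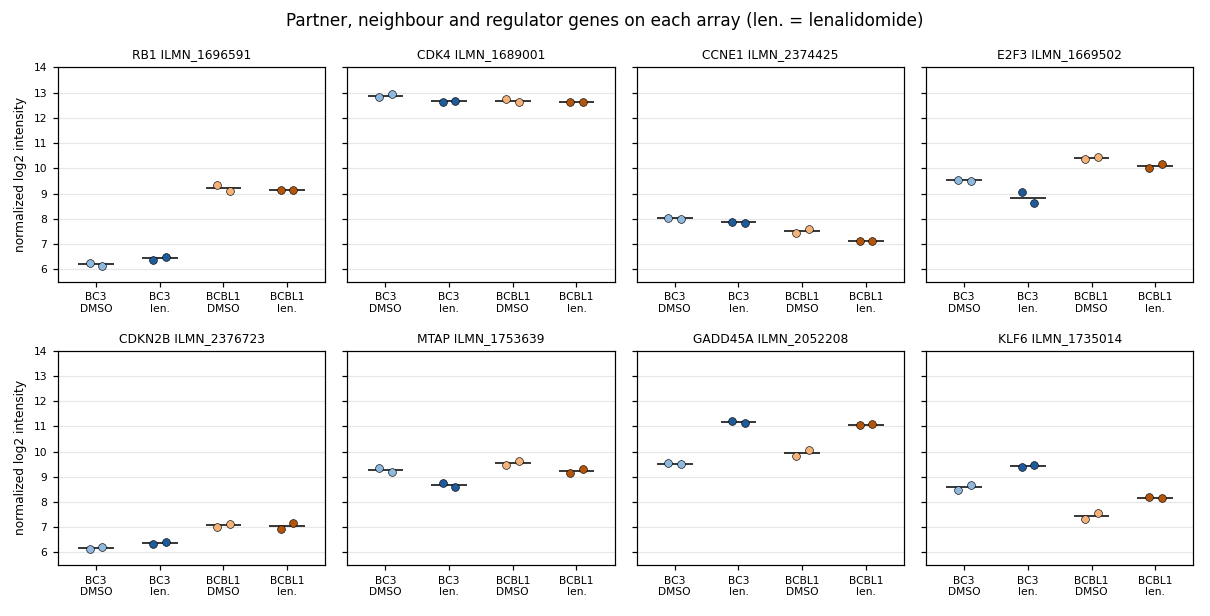
Normalized log2 intensity (vertical axis) of 8 other genes on each array, as points with the group mean as a bar. RB1 is near the bottom of the scale in BC3 and near 9 in BCBL1, CDK4 is at a like level in all groups, and GADD45A and KLF6 are higher with lenalidomide in both lines.

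The genes whose profile over the 8 arrays was most like that of CDKN1A, out of 12272 searched, were PTMS, GADD45A, GBP1, CGN and C1orf54. Likeness was the root mean square difference of normalized log2 values after each gene's own mean was removed, and ran from 0.131 for PTMS to 0.231 for C1orf54, beside an SD of 0.77 for the CDKN1A profile. PTMS, which encodes parathymosin, rose by 1.43 in BC3 and 1.00 in BCBL1. For CCND2 the nearest were SASS6, SEMA7A, CT55, ANKRD12 and ZNF343, with differences of 0.0671 to 0.0844 beside an SD of 0.34.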

How the data were processed

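RNA of the lines BC3 and BCBL1 was measured on 8 Illumina 1-colour arrays, 2 per group. The intensity value of each probe was deposited as read, not normalized, and without detection p-values, per the file headers. A second table the authors deposited holds log2 values of the same arrays, with a median of 4.91 in each column. The submitters' processing notes name limma, and the background correction and offset behind those values are not stated there. Of 47323 probes, 1 was listed at 0 on an array and left out, and no column of sample values was left unused (0). The intensity columns give line and treatment but no replicate number. The rank order of each matched 1 numbered column of the log2 table, array a with replicate 1 and array b with replicate 2. In 6 pairs of groups, deviations of same-numbered arrays from their group means correlated with -0.07 to 0.05, so the numbers were not used as pairs.

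Intensities were corrected with normexp (offset 50), quantile-normalized and taken to log2 (R 4.3.3, limma 3.58.1). The offset understates changes of dim probes. Detection was rebuilt per array from the mode of the signals and the spread below it, at a normal p of 0.05. A probe was tested if above background on both arrays of a group, which 22781 (48.1%) were. For a group below background a bound is given: the brighter mean over, on each array, the dimmest detected signal or the probe itself if that is higher. In limma, group means were estimated from all 8 arrays and variances moderated by empirical Bayes, with 4 residual degrees of freedom and a prior of 9.69. With the line as the replicate these were 1 and 9.07. p-values were adjusted by Benjamini-Hochberg over all tested probes, with a threshold of 0.05. ± is the standard error.

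Probes were named from the platform annotation, where 30113 had 1 symbol, 8 had several and 17201 had none here. Promoter windows are from RefSeq. The members and gene lists were chosen with earlier results of these data known, so no pattern here is independent evidence. Partners, neighbouring genes, promoters and motifs were chosen after their values were seen. By rule, all member probes are described, with up to 5 passing genes per list, direction and line, and the 5 genes most like CDKN1A and CCND2. Alternatives were another offset, no background correction, median scaling, cyclic loess, the deposited log2 values, other filters, 1 probe per gene, a trended and robust variance, fewer arrays, a replicate block, the line as the replicate, and each array left out. Array number limits the precision.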

Additional observations from a re-analysis of the deposited data

Results flagged for a closer look

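EGR1, a listed regulator of CDKN1A, fell with lenalidomide in BCBL1 (-0.81 ± 0.13, adjusted p = 0.00509) and was not called in BC3 (0.42 ± 0.13, adjusted p = 0.133). The test of the difference itself passed: BCBL1 minus BC3 was -1.22 ± 0.19 on the log2 scale (limma adjusted p = 0.00897). This call was lost without BC3 DMSO array a (-1.13), BC3 lenalidomide array b (-1.12) or BCBL1 lenalidomide array a (-1.16). The fall in BCBL1 was lost without BCBL1 lenalidomide array a. The test of the difference passed for 0 of the 11 member probes, beside 0.285% of all tested probes (limma). At an unadjusted p under 0.05 there were 5 member probes, with no share of all probes given at that threshold. These 5 include the ARF probe of CDKN2A, which was below background in BC3.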

How the results depend on the processing

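The brighter CDKN1A probe rose in BC3 under all 12 alternatives and without each of the 8 arrays (1.55 to 1.65 on the log2 scale in fits of the line itself, adjusted p up to 0.00980). In BCBL1 it passed in 11 of 12 and without each array (0.90 to 1.29). The exception was the replicate block on the deposited log2 values (1.12, adjusted p = 0.0567), where 0 member probes passed in place of 1; the arrays share only a number. With the line as the replicate, whose single value for both lines is 1.36, 2 passed, and leaving out arrays gave 1 to 2. In BC3 the 2 calls became 1 with an offset of 16, no background correction, the deposited log2 values, the filter on all 8 arrays, 1 probe per gene and the replicate block, and were 1 to 2 with arrays left out; what was lost was the dimmer CDKN1A probe. The 8 line calls with lenalidomide became 5 with the filter on all 8 arrays and 5 with 1 probe per gene, both of which test fewer probes. Of 1021 repeats of 55 member values, 984 stayed on their side of the threshold, 30 lost and 7 gained a call. The sign changed in 22, of which 0 passed in either fit. Among the listed genes, the calls of GADD45A in both lines and JUN in BCBL1 passed in all 12 alternatives, KLF6 in 11 in BC3 and 10 in BCBL1, JUN in BC3 in 11, CEBPA in 10, FOXO3 in 8, RRM2B in 9 in BC3 and 6 in BCBL1, GINS2 in 9, EGR1 in 9, BCL6 in 7 of 11 and ID2 in 6. Over all probes the alternatives called 236 to 812 in BC3 (662 as reported), 123 to 581 in BCBL1 (435) and 11 to 92 for the difference (65), with 5229 to 8240 between lines with DMSO (8049) and 5399 to 8461 with lenalidomide (8288); arrays left out gave 214 to 633, 170 to 368 and 33 to 48 in the first 3. Median scaling moved the share of higher calls in BCBL1 from 74.5% to 44.5% and between lines with lenalidomide from 51.1% to 35.9%, with the median of all probes at -0.10 in BCBL1; CDKN1A passed there too. The causes were not tested. With 2 arrays per group, described as technical replicates, small changes of the other members were not resolved, as their intervals show.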
